A study of Mus musculus with 27 samples.

Results

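AP-1 is a family of transcription factors, and 9 genes of it were followed here through mouse haematopoiesis: Fos, Fosb and Fosl2, Jun, Junb and Jund, and the related Atf3, Maff and Batf. They were taken by symbol from the expression table, in which each symbol had 1 row, and make up 9 of its 24418 entries. All 9 had at least 1 FPKM (fragments mapped to a transcript, scaled by its length and by the mapped fragments of the library) in at least 3 libraries and were among the 13350 genes tested. The libraries were labelled as bulk RNA of purified C57BL/6 mouse stem and progenitor cells of the blood system (HSPCs), with no genetic change or treatment named. There were 27 libraries, 3 in each of 9 groups. The embryonic groups were E12.5 PL, E12.5 FL and E16.5 FL, where E gives the embryonic day, and the later ones Perinatal BM and the BM of mice aged 1, 3, 4, 6 and 8 weeks (1w BM to 8w BM). FL commonly stands for fetal liver and BM for bone marrow, whereas the labels do not say what PL stands for. The sources used here do not give the sorting markers, the sex or number of mice behind a library, or the exact perinatal day.

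AP-1 factors bind DNA as pairs of basic leucine zipper (bZIP) proteins. Fos proteins cannot pair with themselves and bind as partners of Jun proteins, whereas Jun proteins can also pair with each other or with ATF proteins. Most of the family are immediate-early genes, which growth factors, cytokines and stress switch on within minutes without new protein synthesis, and their transcripts are short-lived. Handling and warming of dissociated tissue can switch on the same genes. In the blood system AP-1 is known for its part in myeloid differentiation, cytokine responses and the control of proliferation.

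The FPKM of a library summed to between 519810 and 763033, with the highest sum outside E12.5 PL at 611034. Counts are not given, so the absolute depth is unknown. A relative depth read from the steps between low values lay between 0.688 and 1.60 of that of the median library. Differences are given as log2(FPKM + 1) of the first group minus that of the second ± SE, which understates the change of low genes. Adjusted p-values are those of limma with Benjamini-Hochberg adjustment over all 13350 genes, and a gene was called at an adjusted p under 0.05. Nothing says whether the libraries of a group came from separate mice or pools, so a p-value reflects the spread among libraries, which may be technical. Each gene had 1 estimate of that spread from all 27 libraries, so SE and p-values do not follow the 2 groups compared alone. The spread was unequal: the SD of Fos was 6.47% of its mean in 1w BM and 46.9% in 8w BM. Summed levels of 10 HSPC markers were 247 to 347 FPKM in the E12.5 PL libraries, and in the other 24 libraries they lay between 970.5 and 1253 FPKM. Of these markers 9 of 10 were called lower in E12.5 PL than in E12.5 FL, against 33.2% of all tested genes (74.2% in either direction). The markers of the labelled cell type thus went against the label of the E12.5 PL libraries, which stood apart from the others, and all statements across groups below that do not name E12.5 PL are over the other 8 groups.

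The Fos proteins carry strong activation domains or, as Fosl2 (Fra-2), lack them. Fos, the founding member and the partner with which Jun forms the classical AP-1, was among the most abundant of the 9 per length. Its level was 239, 313 and 319.8 FPKM in the 3 E12.5 PL libraries, 51.7, 71.4 and 53.1 in E12.5 FL and 175, 258 and 222 in E16.5 FL. In marrow it was 406, 493 and 654 FPKM in Perinatal BM, 261, 296 and 272 in 1w BM and 641, 474 and 952 in 3w BM. The later libraries had 685, 542 and 1027 FPKM in 4w BM, 1240.1, 1376 and 1134 in 6w BM and 1049.6, 499.7 and 1423 in 8w BM. E12.5 FL lay below every other group with no overlap, and the 6w BM mean was 21.3 times the E12.5 FL mean. The order of the means from the top was 6w BM, 8w BM, 4w BM, 3w BM and Perinatal BM, and each neighbour in this order overlapped the next, so neighbours among these 5 groups did not differ beyond their spread.

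Fosb, a close relative of Fos that gives rise to a long-lived truncated form by splicing, had the widest range of the 9. It stood at 77.7, 130.3 and 113 FPKM in E12.5 PL, 10.7, 17.8 and 8.24 in E12.5 FL and 71.6, 102 and 87.2 in E16.5 FL. Perinatal BM had 225, 283 and 354 FPKM, 1w BM 148, 170.1 and 149.8 and 3w BM 518, 465 and 644. In the last 3 groups the values were 253, 229 and 301 FPKM in 4w BM, 961, 1639 and 880.0 in 6w BM and 596, 307 and 726 in 8w BM. The 6w BM libraries lay above all others, and the mean there was 94.5 times that of E12.5 FL. Fosb was the member whose neighbouring groups overlapped least: in the order of the 9 means 3 of the 8 neighbouring pairs overlapped, against 5 of 8 for Fos.

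Fosl2, which codes for the Fos-related antigen Fra-2, followed a different course. Its libraries had 25.3, 36.1 and 24.4 FPKM in E12.5 PL, 19.3, 20.04 and 20.5 in E12.5 FL and 96.1, 58.98 and 69.4 in E16.5 FL. In young marrow it was 50.9, 55.8 and 42.9 FPKM in Perinatal BM, 14.6, 29.6 and 14.4 in 1w BM and 47.5, 67.7 and 43.2 in 3w BM. It was 80.4, 94.99 and 19.8 FPKM in 4w BM, 37.9, 57.8 and 43.4 in 6w BM and 5.62, 9.04 and 19.03 in 8w BM. The highest mean was that of E16.5 FL and the lowest that of 8w BM, the group that ranked second for Fos. The third 4w BM library lay far below the other 2 of its group. In the order of the 9 means, E12.5 PL included, 6 of the 8 neighbouring pairs overlapped.

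**Figure D1:**
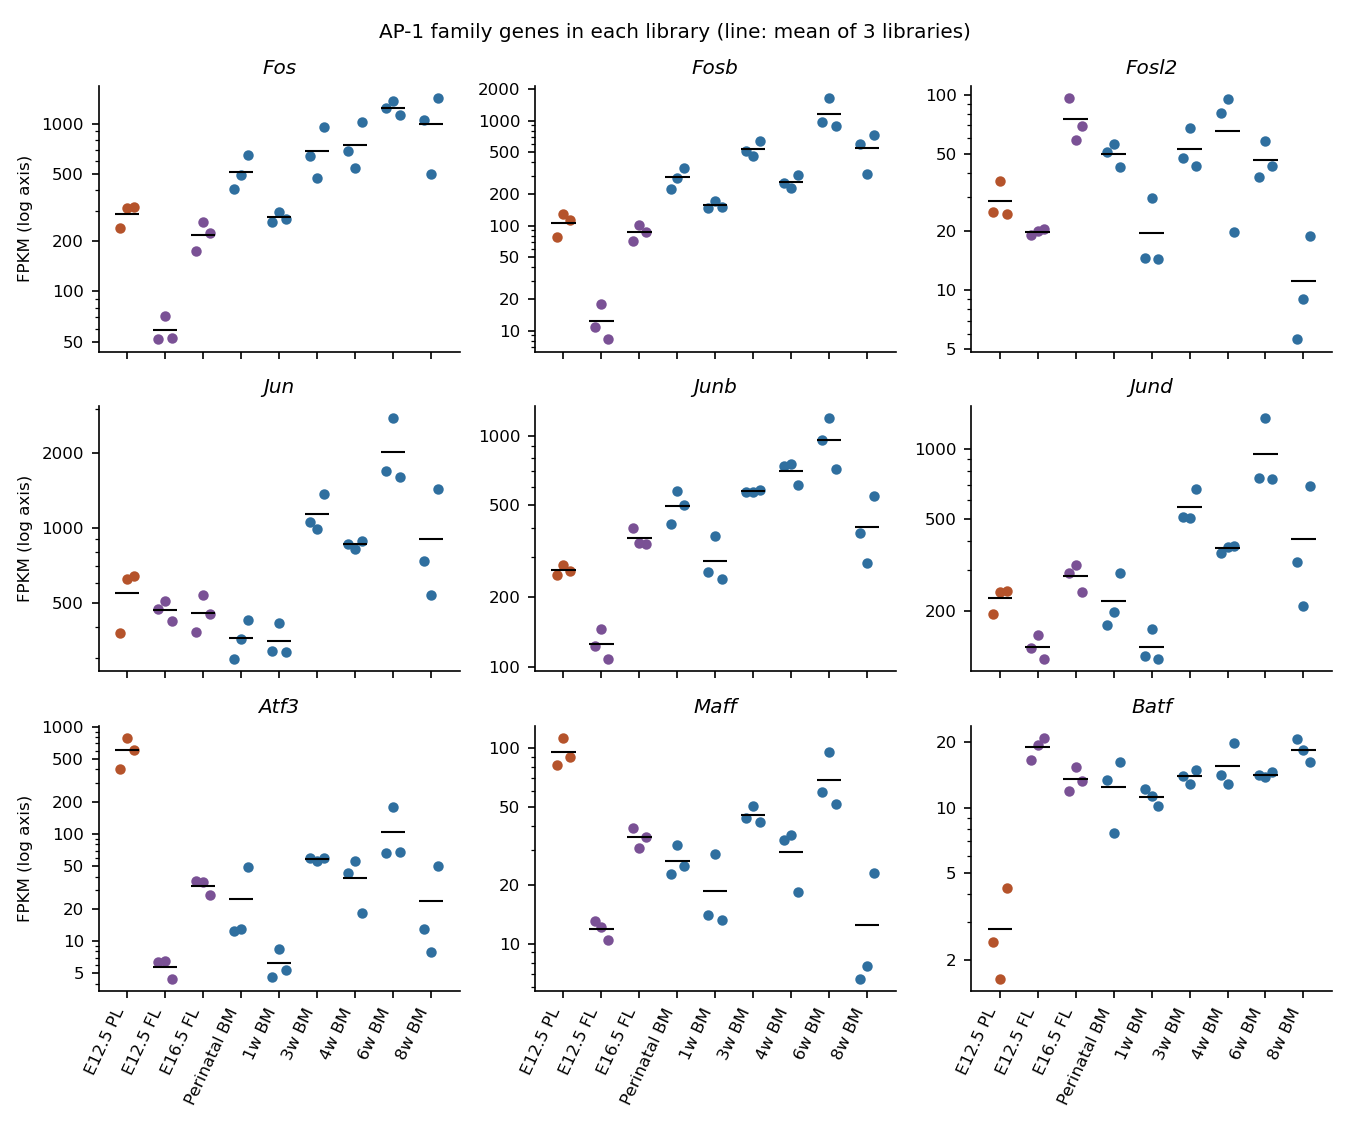
FPKM of the 9 AP-1 genes (y axes, logarithmic) in the 9 groups (x axis); points are the 3 libraries of a group (orange E12.5 PL, purple FL, blue BM) and lines their means. Fos and Fosb are lowest in E12.5 FL and have their highest means in 6w BM, Atf3 is highest in E12.5 PL, and Batf is lowest there.

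The Jun proteins are the obligate partners of Fos. Jun, the most potent activator among them and able to raise its own transcription, had the highest level of all 9 genes in E12.5 FL. It was at 377, 625 and 640.0 FPKM in E12.5 PL, 473, 510.1 and 422 in E12.5 FL and 381, 539 and 449 in E16.5 FL. Values of 296, 357 and 425 FPKM were measured in Perinatal BM, 320.0, 414 and 318 in 1w BM and 1057, 989 and 1367 in 3w BM. The libraries of 4w BM had 864, 822 and 888 FPKM, those of 6w BM 1702, 2773 and 1602 and those of 8w BM 738, 538 and 1432. The 12 libraries from E12.5 FL to 1w BM lay between 296 and 539 FPKM, and the 12 from 3w BM to 8w BM between 538 and 2773 FPKM. The ranges thus met only at the second 8w BM library, which lay just below the second E16.5 FL library.

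Jund, usually described as the constitutive Jun gene, had its lowest means in E12.5 FL (140.4 ± 16.46 FPKM; mean ± SD, n = 3) and 1w BM (140.3 ± 24.2 FPKM), and its highest in 6w BM (948 ± 352 FPKM). Its highest group mean was 6.76 times its lowest, a range above that of Jun at 5.78 times. Junb, a weaker activator that restrains the expansion of myeloid progenitors in mice, had a lower level than Jun in E12.5 FL. It averaged 126 ± 19.5 FPKM in E12.5 FL, 361 ± 32.9 in E16.5 FL, 496 ± 79.8 in Perinatal BM and 288 ± 69.7 in 1w BM. The later means were 574 ± 5.84 FPKM in 3w BM, 702 ± 76.7 in 4w BM, 954 ± 238 in 6w BM and 403 ± 135 in 8w BM. In the order of the 9 Junb means, E12.5 PL included, neighbouring groups overlapped in 6 of 8 pairs.

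Atf3, a stress-induced ATF protein that often represses its targets, was the member with the highest E12.5 PL level relative to the other groups. It stood at 405, 793 and 607 FPKM in E12.5 PL, 6.30, 6.44 and 4.42 in E12.5 FL and 35.96, 35.9 and 26.8 in E16.5 FL. Perinatal BM had 12.3, 12.9 and 49.3 FPKM, 1w BM 4.62, 8.51 and 5.38 and 3w BM 59.98, 55.5 and 59.9. In 4w BM it was at 43.1, 55.3 and 18.3 FPKM, in 6w BM at 66.6, 177 and 68.1 and in 8w BM at 12.96, 7.92 and 50.6. Single libraries carried much of 3 group means: the third of Perinatal BM, the second of 6w BM and the third of 8w BM each stood far above the other 2 of their group.

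Maff, a small Maf protein that has no activation domain of its own, averaged 94.4 ± 16.1 FPKM in E12.5 PL and 11.8 ± 1.33 in E12.5 FL. Its means in the other groups were between 12.4 ± 9.10 FPKM in 8w BM and 68.6 ± 22.9 FPKM in 6w BM. Batf, which pairs with Jun proteins and acts with IRF factors in lymphocytes and dendritic cells, was the least variable. It had 2.41, 1.63 and 4.29 FPKM in E12.5 PL, 16.54, 19.5 and 20.97 in E12.5 FL and 20.6, 18.5 and 16.2 in 8w BM, and the group means of the 8 FL and BM groups lay within 1.69 times of each other. E12.5 PL lay below all other libraries for Batf, and the other groups overlapped their neighbours in the order of means in all 7 pairs.

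Across the 8 FL and BM groups, limma's F test called all 9 genes, where 74.8% of all tested genes were called. Fosb had the largest F (96, adjusted p = 6.39e-13), and 0.629% of tested genes had a smaller p. Fos (F = 46.5) and Junb (F = 40.2) came next, while Batf was near the threshold (F = 2.71, adjusted p = 0.0462) and 74.1% of genes had a smaller p. With single libraries left out, 8 or 9 of the 9 genes were called, and 8 without a filter on low values or with a pseudocount of 0.1.

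The starts of Fos and Batf lie 212830 bases apart on chromosome 12, with Jdp2, the gene of another AP-1 partner, between them. By RefSeq on GRCm38.p6 Fos is at chr12:85473890-85477274, Jdp2 at chr12:85598656-85639878 and Batf at chr12:85686720-85709087. In E12.5 PL against E12.5 FL these neighbours differed in direction, since Fos and Jdp2 rose and Batf fell; Jdp2 was at 30.4 ± 5.26 FPKM in E12.5 PL and 9.63 ± 0.696 FPKM in E12.5 FL (adjusted p = 3.83e-11). The other members are at chr7:19302696-19310118 (Fosb), chr5:32136472-32157840 (Fosl2), chr4:95049036-95052222 (Jun), chr1:191170296-191183333 (Atf3) and chr15:79346621-79359078 (Maff). Jund (chr8:70697739-70700616) and Junb (chr8:84976909-84978748) share a chromosome, 14279170 bases apart. No other RefSeq gene in the table used overlaps any of the 9.

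The upstream sequence of 3 members is shown, because Fos and Jun are the classical AP-1 pair and Maff holds the one full cyclic AMP response element found among the 9 genes. Each is the RefSeq sequence (GRCm38.p6) of the 250 bases before a transcription start, 5′ to 3′ on the gene's strand, with motif matches in capitals. They cover chr12:85473640-85473889 (plus strand) for Fos, chr4:95052223-95052472 (minus strand) for Jun and chr15:79347270-79347519 (plus strand) for the second of 3 annotated Maff starts.
Fos: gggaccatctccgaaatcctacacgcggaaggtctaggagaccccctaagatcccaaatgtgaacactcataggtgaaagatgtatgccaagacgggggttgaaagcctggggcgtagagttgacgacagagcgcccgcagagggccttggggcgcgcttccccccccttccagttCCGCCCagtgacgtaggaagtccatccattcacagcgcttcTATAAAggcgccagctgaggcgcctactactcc
Jun: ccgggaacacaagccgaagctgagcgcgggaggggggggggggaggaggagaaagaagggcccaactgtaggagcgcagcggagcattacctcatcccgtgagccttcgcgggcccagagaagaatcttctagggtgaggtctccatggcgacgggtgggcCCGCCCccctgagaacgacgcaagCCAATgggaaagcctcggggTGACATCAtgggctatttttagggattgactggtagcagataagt
Maff: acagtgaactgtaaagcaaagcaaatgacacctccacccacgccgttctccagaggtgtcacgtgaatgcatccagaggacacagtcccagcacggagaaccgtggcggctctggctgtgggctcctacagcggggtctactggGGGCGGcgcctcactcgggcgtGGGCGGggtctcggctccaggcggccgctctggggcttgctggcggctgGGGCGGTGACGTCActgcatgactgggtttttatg
In Fos the capitals mark an Sp1 hexamer (GGGCGG, here on the other strand) and TATAAA, 33 bases before the start. In Jun they mark an Sp1 hexamer, CCAAT and TGACATCA, a variant of the AP-1 site, 45 bases before the start. In the Maff window they mark 3 Sp1 hexamers and TGACGTCA, 29 bases before the start.

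All 9 genes had an entry among the RefSeq promoters, 11 windows in all, and both strands were searched. The 7-letter AP-1 site TGANTCA was in none of the 11 windows, and in 6.75% of 32851 mouse promoters of the same length. TGACNTCA was in windows of 2 members (Jun and Maff) and in 7.49% of promoters, and TGACGTCA, every match of which is also a match of TGACNTCA, in 1.55%. The Sp1 hexamer was found in 7 of the 9 genes and in 32.7% of promoters, CCAAT in Jun and Junb and in 33.8%, and TATAAA in Fos alone and in 12.4%. These member counts are per gene, with 3 windows for Maff, whereas the shares are per single window. The letters G and C made up 46.4 to 68.8% of the 11 windows, with a median of 52.4% over all promoters. The CArG box, the site of serum response factor, was in none of the windows and in 1.47% of promoters. Sites more than 250 bases before a start were not searched, so absence from a window does not mean that a gene lacks the site. The motifs were chosen after expression values had been seen, and a match describes letters in these windows only.

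E12.5 PL and E12.5 FL have the same embryonic age and different sources, and both are labelled as HSPCs, although the HSPC markers above went against that label for the libraries labelled E12.5 PL. Of the 9 genes 6 rose in E12.5 PL, 1 fell and 2 were not called. Because E12.5 PL differed from E12.5 FL in 74.2% of all tested genes (41% higher and 33.2% lower), this share is close to the background. Atf3 had the largest difference, with 602 ± 194 FPKM in E12.5 PL and 5.72 ± 1.13 FPKM in E12.5 FL (log2 difference 6.45 ± 0.53, adjusted p = 1.59e-10). The library values given above do not overlap, and Atf3 alone made up 27.4% of the summed AP-1 FPKM of E12.5 PL.

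Among the Fos genes, Fosb rose by 3.06 ± 0.29 log2 units (adjusted p = 1.5e-09) and Fos by 2.29 ± 0.29 log2 units (adjusted p = 2.63e-07) in E12.5 PL on the log2 scale, and neither overlapped. Fosl2, at 28.6 ± 6.51 FPKM in E12.5 PL and 19.95 ± 0.628 FPKM in E12.5 FL, was not called (log2 difference 0.48 ± 0.42, adjusted p = 0.311). Of the Jun genes, Junb rose by 1.06 ± 0.20 log2 units (adjusted p = 4.6e-05) and Jund by 0.68 ± 0.29 log2 units (adjusted p = 0.0363), while Jun was not called (log2 difference 0.19 ± 0.27, adjusted p = 0.54). Maff rose by 2.89 ± 0.33 log2 units (adjusted p = 4.37e-08). Batf fell by 2.46 ± 0.22 (adjusted p = 4.27e-10), with 2.78 ± 1.36 FPKM in E12.5 PL and 18.99 ± 2.25 FPKM in E12.5 FL, and was the one called member that was lower in E12.5 PL. The median difference of the 9 genes was 1.06, against 0.0641 for all tested genes.

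Other genes of the immediate response differed in the same libraries. Of 15 other immediate-early genes 11 rose and 1 fell in E12.5 PL, and of 8 heat shock genes 7 rose and none fell. In this comparison 41% of all tested genes were higher and 33.2% lower (74.2% in either direction). The called share of the immediate-early genes is close to that background. Egr1, an immediate-early zinc finger factor, was at 323 ± 119 FPKM in E12.5 PL and 37.1 ± 6.90 FPKM in E12.5 FL. Among 17 genes often named as AP-1 targets, 12 were tested, 10 rose and 2 fell; Hmox1, the haem-degrading oxygenase, was at 382 ± 69.2 FPKM in E12.5 PL and 5.14 ± 1.35 FPKM in E12.5 FL. Markers of other cell types moved too: the summed level of 8 trophoblast markers was 2662 to 3071 FPKM in E12.5 PL libraries and 16.2 to 18.6 FPKM in E12.5 FL libraries (8 higher and 0 lower of 8 tested), where Hand1 and Elf5 were listed at 0. The sum of 6 endothelial markers was 611 to 814 FPKM in E12.5 PL and 51.3 to 56.9 FPKM in E12.5 FL (6 higher and 0 lower of 6 tested). Their part in the AP-1 differences was not tested, and in bulk libraries fewer cells of a type and less RNA per cell cannot be told apart. The Jund call ended without E12.5 PL library 2 or 3 or E12.5 FL library 1 or 3 (adjusted p = 0.0914, 0.0968, 0.0705 and 0.105).

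Between E12.5 and E16.5 in FL, 7 of the 9 genes rose and none fell, against 19% of all tested genes higher and 15.6% lower in E16.5 FL (34.6% called in either direction). Fosb averaged 86.96 ± 15.3 FPKM in E16.5 FL and 12.3 ± 4.98 FPKM in E12.5 FL (6.86-fold higher, log2 difference 2.78 ± 0.29, adjusted p = 2.77e-07). Fos averaged 218 ± 41.9 FPKM in E16.5 FL and 58.7 ± 11.01 FPKM in E12.5 FL (3.67-fold higher, log2 difference 1.87 ± 0.29, adjusted p = 4.75e-05). Fosl2 rose by 1.83 ± 0.42 log2 units (adjusted p = 0.00184), Junb by 1.52 ± 0.20 log2 units (adjusted p = 5.22e-06) and Jund by 1.00 ± 0.29 log2 units (adjusted p = 0.00976). Atf3 rose by 2.34 ± 0.53 log2 units (adjusted p = 0.00181) and Maff by 1.48 ± 0.33 log2 units (adjusted p = 0.00152). For all 7 the E16.5 FL libraries lay above the E12.5 FL libraries, as they did for 28.4% of all tested genes. Jun was not called: it was at 457 ± 79.1 FPKM in E16.5 FL and 468 ± 44.3 FPKM in E12.5 FL, and its libraries overlapped (log2 difference -0.05 ± 0.27, adjusted p = 0.93). Batf differed by -0.46 ± 0.22 log2 units (adjusted p = 0.102) and was not called. The median difference was 1.52 for the 9 genes and 0.011 for all tested genes.

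Of the other immediate-early genes 6 of 15 rose and 1 fell in E16.5 FL, whereas 7 of 8 heat shock genes fell and none rose. Dusp5, a nuclear phosphatase of ERK, was at 247 ± 20.9 FPKM in E16.5 FL and 80.7 ± 1.93 FPKM in E12.5 FL (log2 difference 1.60), and 9 of 24 MAP kinases and phosphatases rose and 3 fell. Among 20 tested bZIP partners 9 rose and 3 fell, where 34.6% of all tested genes were called. Atf4, the bZIP factor of the integrated stress response, was at 341 ± 66.8 FPKM in E16.5 FL and 179.6 ± 1.01 FPKM in E12.5 FL. In the same comparison the summed level of 6 neutrophil markers was 294 to 804 FPKM in E16.5 FL and 3.76 to 6.01 FPKM in E12.5 FL (6 higher and 0 lower of 6 tested), and that of 6 B lineage markers 53.3 to 147 FPKM in E16.5 FL and 21.97 to 26.5 FPKM in E12.5 FL (6 higher and 0 lower of 6 tested). Macrophage markers summed to 40.7 to 47.7 FPKM in E16.5 FL and 20.8 to 24.5 FPKM in E12.5 FL (5 higher and 0 lower of 6 tested). Ngp and Camp among the neutrophil markers and Pax5 among the B lineage markers were listed at 0 in E12.5 FL. Their part in the AP-1 differences was not tested. All 7 calls remained when any single library was left out.

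**Figure D2:**
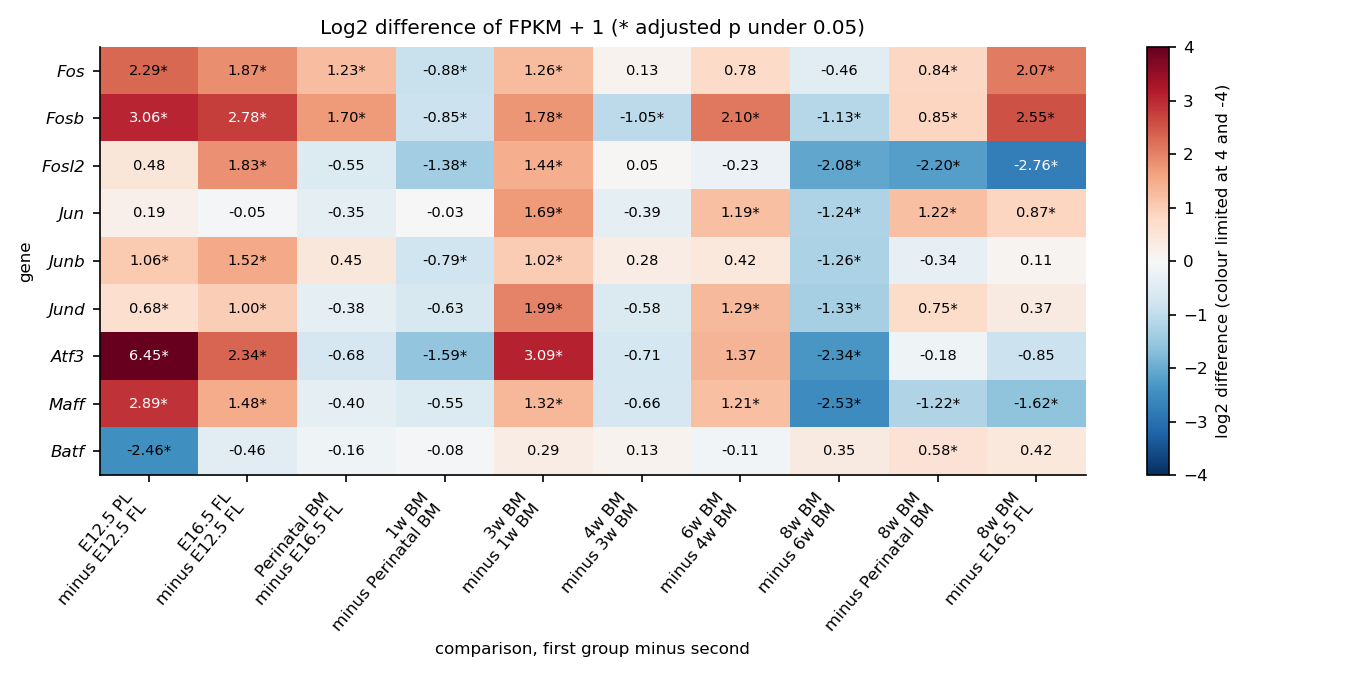
Difference in log2(FPKM + 1) of each AP-1 gene (rows) in 10 comparisons (columns, first-named group minus second), with red for higher and blue for lower values and a star for an adjusted p under 0.05 (limma). Jun is near 0 in both fetal comparisons, 8 of 9 genes are starred as higher in 3w BM against 1w BM, and 7 of 9 as lower in 8w BM against 6w BM.

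Perinatal BM differed from E16.5 FL in 2 of the 9 genes, both higher, against 14.2% of all tested genes higher and 14.2% lower (28.4% in either direction). Fosb averaged 287 ± 64.9 FPKM in Perinatal BM and 86.96 ± 15.3 FPKM in E16.5 FL (log2 difference 1.70 ± 0.29, adjusted p = 0.000131), and Fos 517 ± 126 FPKM in Perinatal BM and 218 ± 41.9 FPKM in E16.5 FL (log2 difference 1.23 ± 0.29, adjusted p = 0.0031). In both genes every Perinatal BM library lay above every E16.5 FL library, as for 18.7% of all tested genes. Junb differed by 0.45 ± 0.20 log2 units (adjusted p = 0.0975) and Jun by -0.35 ± 0.27 log2 units (adjusted p = 0.366), and neither was called. The libraries of Junb, higher in Perinatal BM, and of Fosl2, lower there, did not overlap either. Fosl2 was not called (log2 difference -0.55 ± 0.42, adjusted p = 0.354), nor were Jund, Atf3, Maff and Batf. The median over the 9 genes was -0.346, with 0 over all tested genes. Both calls remained when any single library was left out.

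Egr1 was at 319 ± 86.5 FPKM in Perinatal BM and 73.9 ± 14.9 FPKM in E16.5 FL, and Socs3, a feedback inhibitor of cytokine signalling, at 28.3 ± 5.58 FPKM in Perinatal BM and 3.67 ± 0.857 FPKM in E16.5 FL. They were among 7 of 15 other immediate-early genes that rose, with 1 that fell, while 6 of 8 heat shock genes fell. In this comparison 28.4% of all tested genes were called. The Perinatal BM libraries also held mast cell transcripts: 6 mast cell markers summed to 1263 to 3424 FPKM in Perinatal BM, 6.87 to 48.4 FPKM in E16.5 FL and 68.4 to 114 FPKM in 1w BM. Against E16.5 FL the calls were 6 higher and 0 lower of 6 tested, and in 1w BM against Perinatal BM 0 higher and 5 lower of 6 tested. B lineage markers summed to 24.5 to 56.3 FPKM in Perinatal BM and 53.3 to 147 FPKM in E16.5 FL (0 higher and 6 lower of 6 tested). The part of these cells in the AP-1 differences of Perinatal BM was not tested.

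In 1w BM against Perinatal BM, 5 of the 9 genes fell and none rose, against 8.97% of all tested genes lower and 8.6% higher (17.6% in either direction). Junb averaged 288 ± 69.7 FPKM in 1w BM and 496 ± 79.8 FPKM in Perinatal BM (log2 difference -0.79 ± 0.20, adjusted p = 0.00776), with no overlap of the libraries. Fosl2 had 14.6, 29.6 and 14.4 FPKM in 1w BM and 50.9, 55.8 and 42.9 FPKM in Perinatal BM, and every 1w BM value was lower (log2 difference -1.38 ± 0.42, adjusted p = 0.0258). Fos differed by -0.88 ± 0.29 log2 units (adjusted p = 0.0428), Fosb by -0.85 ± 0.29 log2 units (adjusted p = 0.043) and Atf3 by -1.59 ± 0.53 log2 units (adjusted p = 0.0429). Jun was not called, at 351 ± 54.9 FPKM in 1w BM and 359 ± 64.2 FPKM in Perinatal BM (log2 difference -0.03 ± 0.27, adjusted p = 0.97), and Jund, Maff and Batf were not called. The median difference of the 9 genes was -0.795, with -0.00132 over all tested genes. These calls were close to the threshold: the number of called members was 0 without 1w BM library 3 by limma (5 at an unadjusted p under 0.05), 1 without 1w BM library 1, 2 without Perinatal BM library 2 or 3, 3 without 1w BM library 2, and 4 without Perinatal BM library 1. Without Perinatal BM library 3 the Atf3 difference was -0.96 (adjusted p = 0.23).

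Of the other immediate-early genes 6 of 15 fell in 1w BM and none rose, among them Socs3, at 11.6 ± 4.05 FPKM in 1w BM and 28.3 ± 5.58 FPKM in Perinatal BM, and Nr4a2, an orphan nuclear receptor, at 11.4 ± 4.89 FPKM in 1w BM and 39.8 ± 4.42 FPKM in Perinatal BM. Of all tested genes 17.6% were called here. Elane, a protease of early granulocytes, was at 729.5 ± 220.4 FPKM in 1w BM and 226 ± 118 FPKM in Perinatal BM, and the 6 neutrophil markers summed to 1126 to 1827 FPKM in 1w BM and 222 to 946 FPKM in Perinatal BM (1 higher and 0 lower of 6 tested).

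In 3w BM, 8 of the 9 genes rose relative to 1w BM and none fell, against 5.69% of all tested genes higher and 4.76% lower (10.4% in either direction). Jund had 507, 504 and 670.3 FPKM in 3w BM and 129, 168 and 124 FPKM in 1w BM. The groups were far apart, with a log2 difference of 1.99 ± 0.29 (adjusted p = 9.17e-05). Jun averaged 1138 ± 202 FPKM in 3w BM and 351 ± 54.9 FPKM in 1w BM, a 3.23-fold higher level (log2 difference 1.69 ± 0.27, adjusted p = 0.000246), and Junb rose by 1.02 ± 0.20 log2 units (adjusted p = 0.00185). Fosb averaged 542 ± 91.8 FPKM in 3w BM and 156 ± 12.3 FPKM in 1w BM (log2 difference 1.78 ± 0.29, adjusted p = 0.000319). Atf3 had 59.98, 55.5 and 59.9 FPKM in 3w BM and 4.62, 8.51 and 5.38 FPKM in 1w BM, the largest difference of this step at 3.09 ± 0.53 log2 units (adjusted p = 0.00064). Fos rose by 1.26 ± 0.29 log2 units (adjusted p = 0.00807), Fosl2 by 1.44 ± 0.42 log2 units (adjusted p = 0.0296) and Maff by 1.32 ± 0.33 log2 units (adjusted p = 0.0134). Batf, the remaining member, was not called (log2 difference 0.29 ± 0.22, adjusted p = 0.459). For all 9 genes, Batf included, every 3w BM library lay above every 1w BM library, as for 17.4% of all tested genes, and the median difference was 1.44, with -0.00461 over all tested genes.

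Other immediate-early genes rose alongside, 10 of 15, with none lower, where 10.4% of all tested genes were called. Klf2, a Krüppel-like factor, was at 254 ± 88.6 FPKM in 3w BM and 15.3 ± 2.67 FPKM in 1w BM, Rhob, a small GTPase gene of the early response, at 241 ± 54.99 FPKM in 3w BM and 61.5 ± 9.20 FPKM in 1w BM, and Nr4a1, an orphan nuclear receptor, at 943 ± 121 FPKM in 3w BM and 296 ± 119 FPKM in 1w BM. Zfp36, whose protein binds AU-rich elements and speeds the decay of short-lived transcripts, was at 1133 ± 236 FPKM in 3w BM and 504 ± 78.4 FPKM in 1w BM. Heat shock genes rose in 4 of 8 cases. The 6 neutrophil markers summed to 508 to 544 FPKM in 3w BM and 1126 to 1827 FPKM in 1w BM (0 higher and 5 lower of 6 tested). Macrophage markers summed to 50.3 to 59.7 FPKM in 3w BM and 28.7 to 43.6 FPKM in 1w BM (3 higher and 0 lower of 6 tested), and mast cell markers to 51.3 to 58.8 FPKM in 3w BM and 68.4 to 114 FPKM in 1w BM (0 higher and 3 lower of 6 tested). The part of these cells was not tested. The Fosl2 call ended without 1w BM library 1 or 3 or 3w BM library 1 or 2 (adjusted p = 0.121, 0.115, 0.067 and 0.121). The Maff call ended without 1w BM library 1 or 3 or 3w BM library 2 (adjusted p = 0.0703, 0.0688 and 0.0515), and the Fos call without 3w BM library 3 (adjusted p = 0.0585).

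From 3w BM to 4w BM only Fosb was called. It fell to 253, 229 and 301 FPKM in 4w BM, against 518, 465 and 644 FPKM in 3w BM, with no overlap (log2 difference -1.05 ± 0.29, adjusted p = 0.0248). That is 1 of 9 genes, against 4.56% of all tested genes lower and 4.72% higher (9.28% in either direction). Jund, at 372 ± 13.3 FPKM in 4w BM and 560.2 ± 95.4 FPKM in 3w BM, did not overlap either but was not called (log2 difference -0.58 ± 0.29, adjusted p = 0.228), and the same held for Jun, Atf3 and Maff. With Fosb that made 5 of 9 genes with every 4w BM library below every 3w BM library, against 14.1% of all tested genes. Junb went the other way without overlap, at 702 ± 76.7 FPKM in 4w BM and 574 ± 5.84 FPKM in 3w BM. It was not called (log2 difference 0.28 ± 0.20, adjusted p = 0.425). Fosl2 and Batf overlapped and were not called. Fos was at 751 ± 249 FPKM in 4w BM and 689 ± 242 FPKM in 3w BM, and its libraries overlapped. The median difference was -0.393, with 0.00394 over all tested genes. Without 3w BM library 1 or 3 or any one of the 4w BM libraries, limma called none of the 9 (1 or 2 at an unadjusted p under 0.05; adjusted p of Fosb 0.0516 to 0.0979). The 6 neutrophil markers summed to 57.9 to 400.4 FPKM in 4w BM and 508 to 544 FPKM in 3w BM (0 higher and 2 lower of 6 tested), and the B lineage markers to 20.1 to 23.5 FPKM in 4w BM and 29.9 to 41.5 FPKM in 3w BM (0 higher and 4 lower of 6 tested). Their part was not tested.

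In 6w BM against 4w BM, 4 of the 9 genes rose and none fell, against 2.59% of all tested genes higher and 1.35% lower (3.94% in either direction). Fosb had 961, 1639 and 880.0 FPKM in 6w BM and 253, 229 and 301 FPKM in 4w BM, a 4.29-fold higher level (log2 difference 2.10 ± 0.29, adjusted p = 0.00023). Jun had 1702, 2773 and 1602 FPKM in 6w BM and 864, 822 and 888 FPKM in 4w BM (log2 difference 1.19 ± 0.27, adjusted p = 0.0115), and Jund 747, 1355 and 743 FPKM in 6w BM and 357, 379 and 381 FPKM in 4w BM (log2 difference 1.29 ± 0.29, adjusted p = 0.0115). None of these 3 overlapped, and the second 6w BM library was the highest for each. With Maff, Fos and Atf3, 6 of the 9 genes were higher without overlap, against 11% of all tested genes. Maff rose by 1.21 ± 0.33 log2 units (adjusted p = 0.0408). Fos, at 1249.8 ± 121 FPKM in 6w BM and 751 ± 249 FPKM in 4w BM, and Atf3, at 104 ± 63.3 FPKM in 6w BM and 38.9 ± 18.8 FPKM in 4w BM, were not called (log2 difference 0.78 ± 0.29, adjusted p = 0.162 and 1.37 ± 0.53, adjusted p = 0.18). Fosl2, Junb and Batf were not called either. The median difference was 1.19, with -0.00234 over all tested genes. Without 6w BM library 2, Fosb alone was called, and the differences of Jun, Jund and Maff were 0.94, 1.00 and 0.96 (adjusted p = 0.0975, 0.1 and 0.226). The Maff call also ended without 4w BM library 1 or 3 or 6w BM library 1 (adjusted p = 0.0711, 0.226 and 0.0674).

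Of the other immediate-early genes 6 of 15 rose and none fell, with Egr1 at 1475 ± 347 FPKM in 6w BM and 552 ± 69.7 FPKM in 4w BM and Klf6, a Krüppel-like factor, at 382 ± 152 FPKM in 6w BM and 126 ± 6.98 FPKM in 4w BM. Of all tested genes 3.94% were called here. Of 8 heat shock genes 3 rose, among them Hspa1a, the inducible Hsp70, at 14.3 ± 8.31 FPKM in 6w BM and 0.695 ± 0.146 FPKM in 4w BM. The sum of the 8 genes taken as trophoblast markers was 37.1 to 112 FPKM in 6w BM and 19.4 to 23.3 FPKM in 4w BM, almost all of it Krt18, a keratin, at 60.3 ± 40.05 FPKM in 6w BM and 17.8 ± 1.40 FPKM in 4w BM. Hand1, Krt19, Plac1, Tfap2c and Elf5 were listed at 0 in all 6w BM libraries.

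In 8w BM against 6w BM the direction was the opposite, with 7 of the 9 genes lower and none higher, against 5.21% of all tested genes lower and 2.97% higher (8.18% in either direction). Maff had 6.59, 7.72 and 22.9 FPKM in 8w BM and 59.4, 94.6 and 51.8 FPKM in 6w BM, without overlap and 5.78-fold lower (log2 difference -2.53 ± 0.33, adjusted p = 3.42e-05). Junb had 379, 282 and 548 FPKM in 8w BM and 953, 1192 and 717 FPKM in 6w BM, again without overlap (log2 difference -1.26 ± 0.20, adjusted p = 0.000206). Fosl2 had 5.62, 9.04 and 19.03 FPKM in 8w BM and 37.9, 57.8 and 43.4 FPKM in 6w BM (log2 difference -2.08 ± 0.42, adjusted p = 0.00237). In all 7 called genes, not only these 3, the third 8w BM library was the highest of its group and still below all 6w BM libraries. No overlap with lower values was found in 13% of all tested genes. Jun differed by -1.24 ± 0.27 log2 units (adjusted p = 0.00416), Jund by -1.33 ± 0.29 log2 units (adjusted p = 0.00452), Fosb by -1.13 ± 0.29 log2 units (adjusted p = 0.0155) and Atf3 by -2.34 ± 0.53 log2 units (adjusted p = 0.00687). Fos was not called: it had 1049.6, 499.7 and 1423 FPKM in 8w BM and 1240.1, 1376 and 1134 FPKM in 6w BM, and the groups overlapped (log2 difference -0.46 ± 0.29, adjusted p = 0.42). Batf, at 18.4 ± 2.22 FPKM in 8w BM and 14.2 ± 0.358 FPKM in 6w BM, was not called (log2 difference 0.35 ± 0.22, adjusted p = 0.388). Every 8w BM library of Batf nevertheless lay above every 6w BM library. The median difference was -1.26, with 0.00984 over all tested genes.

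Other immediate-early genes fell in 14 of 15 cases and none rose. Ier5, an immediate-early response gene, was at 54.7 ± 19.4 FPKM in 8w BM and 161 ± 48.7 FPKM in 6w BM, Nr4a1 at 390.5 ± 207 FPKM in 8w BM and 1203 ± 358 FPKM in 6w BM and Tnf, a cytokine gene with AP-1 sites, at 7.67 ± 2.05 FPKM in 8w BM and 28.9 ± 7.78 FPKM in 6w BM. Of 24 MAP kinases and phosphatases 7 fell and none rose, where 8.18% of all tested genes were called, and the 4 with the smallest adjusted p were the phosphatases Dusp8, Dusp10, Dusp5 and Dusp4. Dusp5 was at 40.2 ± 20.97 FPKM in 8w BM and 101 ± 3.31 FPKM in 6w BM. Of the small Maf genes and other partners, Mafk was at 38.7 ± 12.9 FPKM in 8w BM and 98.7 ± 37.5 FPKM in 6w BM. Summed over 6 macrophage markers the level was 96.5 to 146 FPKM in 8w BM and 46.04 to 53.5 FPKM in 6w BM (6 higher and 0 lower of 6 tested), in the direction opposite to the AP-1 genes, and the part of these cells was not tested. Without 6w BM library 2, 3 members remained called (Fosl2, Junb and Maff), and the differences of Fosb, Jun, Jund and Atf3 were -0.85, -0.99, -1.04 and -1.88 (adjusted p = 0.141, 0.0504, 0.0554 and 0.0731). Without 8w BM library 2 the calls of Fosb and Atf3 ended (adjusted p = 0.133 and 0.0661).

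Over the whole span of marrow development, 8w BM against Perinatal BM, 5 genes rose and 2 fell, against 19.2% of all tested genes higher and 18.6% lower (37.8% in either direction). The members that fell were Fosl2, at 11.2 ± 6.97 FPKM in 8w BM and 49.9 ± 6.53 FPKM in Perinatal BM (4.60-fold lower, log2 difference -2.20 ± 0.42, adjusted p = 0.000261), and Maff, at 12.4 ± 9.10 FPKM in 8w BM and 26.4 ± 4.82 FPKM in Perinatal BM (log2 difference -1.22 ± 0.33, adjusted p = 0.00584). Jun rose by 1.22 ± 0.27 log2 units (adjusted p = 0.001), Fos by 0.84 ± 0.29 log2 units (adjusted p = 0.0287), Fosb by 0.85 ± 0.29 log2 units (adjusted p = 0.023), Jund by 0.75 ± 0.29 log2 units (adjusted p = 0.045) and Batf by 0.58 ± 0.22 log2 units (adjusted p = 0.0362). Apart from Jun and Fosl2, the libraries of the 2 groups overlapped for every called member. Junb (log2 difference -0.34 ± 0.20, adjusted p = 0.189) and Atf3 (log2 difference -0.18 ± 0.53, adjusted p = 0.843) were not called. The 9 genes had a median difference of 0.584, and all tested genes one of -0.000461. The number of called members was 3 without 8w BM library 1 and 4 without Perinatal BM library 1 or 2. Calls ended for Fos without Perinatal BM library 1 or 2 or 8w BM library 1 or 3 (adjusted p 0.0655 to 0.201), for Jund without the same libraries (0.0585 to 0.402), for Fosb without Perinatal BM library 1 or 8w BM library 1 or 3 (0.0857 to 0.143) and for Batf without Perinatal BM library 2 or 8w BM library 1 or 2 (0.0771 to 0.275), and Junb was called without 8w BM library 3 (0.0232). Without 8w BM library 3 the Jund difference was 0.28, and without 8w BM library 2 that of Fos was 1.27 and that of Jund 1.13.

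Markers of other cell types also differed between 8w BM and Perinatal BM, where 37.8% of all tested genes were called. Mast cell markers summed to 25.4 to 37.9 FPKM in 8w BM and 1263 to 3424 FPKM in Perinatal BM (0 higher and 5 lower of 6 tested), and macrophage markers to 96.5 to 146 FPKM in 8w BM and 38.4 to 45.5 FPKM in Perinatal BM (5 higher and 0 lower of 6 tested). Neutrophil markers summed to 326 to 439 FPKM in 8w BM and 222 to 946 FPKM in Perinatal BM (0 higher and 5 lower of 6 tested). Their median log2 difference was -2.56, and 1 marker, not called, lay higher in 8w BM without overlap. Their part in these AP-1 differences was not tested.

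Against E16.5 FL, 8w BM had 3 genes higher and 2 lower, where 20.5% of all tested genes were higher and 19.7% lower (40.2% in either direction). Fosb averaged 543 ± 214 FPKM in 8w BM and 86.96 ± 15.3 FPKM in E16.5 FL (log2 difference 2.55 ± 0.29, adjusted p = 2.7e-07), and Fos rose by 2.07 ± 0.29 log2 units (adjusted p = 7.07e-06) and Jun by 0.87 ± 0.27 log2 units (adjusted p = 0.0118). Fosl2 averaged 11.2 ± 6.97 FPKM in 8w BM and 74.8 ± 19.1 FPKM in E16.5 FL (log2 difference -2.76 ± 0.42, adjusted p = 1.58e-05), and Maff differed by -1.62 ± 0.33 log2 units (adjusted p = 0.000456). Junb, Jund, Atf3 and Batf were not called. The Jun call ended without E16.5 FL library 1 or 8w BM library 3 (adjusted p = 0.0592 and 0.127). Jund was called without 8w BM library 2 (adjusted p = 0.0341) and Atf3 without 8w BM library 3 (adjusted p = 0.0156). In the same comparison the B lineage markers summed to 19.2 to 22.4 FPKM in 8w BM and 53.3 to 147 FPKM in E16.5 FL (0 higher and 6 lower of 6 tested), and the neutrophil markers to 326 to 439 FPKM in 8w BM and 294 to 804 FPKM in E16.5 FL (1 higher and 5 lower of 6 tested). The macrophage markers summed to 96.5 to 146 FPKM in 8w BM and 40.7 to 47.7 FPKM in E16.5 FL (5 higher and 0 lower of 6 tested), and the part of these cells was not tested. Both comparisons share the 8w BM libraries with each other and with the one against 6w BM, so their values are not independent of one another.

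Summed over the 9 genes, the level was 2161 ± 455 FPKM in E12.5 PL, 863 ± 95.1 in E12.5 FL, 1561 ± 120.5 in E16.5 FL, 1994 ± 371 in Perinatal BM and 1267 ± 197 in 1w BM (mean ± SD, n = 3). In older marrow it was 3673 ± 621 FPKM in 3w BM, 3093 ± 182 in 4w BM, 6571 ± 1843 in 6w BM and 3314 ± 1532 in 8w BM. As a share of all FPKM of a library this was 0.141 to 0.163% in E12.5 FL and 0.964 to 1.65% in 6w BM. The E12.5 FL sums were the lowest and the 6w BM sums the highest of the 9 groups.

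The make-up of the sum differed between groups, and not in a steady course. Jun, Junb and Jund together held 85.2 ± 0.865% of it in E12.5 FL, 70.4 ± 0.986% in E16.5 FL, 54.1 ± 2.33% in Perinatal BM and 61.3 ± 2.11% in 1w BM. In the later groups they held 62.1 ± 2.43% in 3w BM, 62.6 ± 4.89% in 4w BM, 59.5 ± 1.61% in 6w BM and 51.7 ± 4.89% in 8w BM. Fos, Fosb and Fosl2 held 10.5 ± 0.895% in E12.5 FL, 24.3 ± 1.38% in E16.5 FL, 42.7 ± 1.70% in Perinatal BM and 35.9 ± 2.49% in 1w BM, then 34.6 ± 2.95% in 3w BM, 34.6 ± 5.82% in 4w BM, 37.8 ± 2.05% in 6w BM and 46.7 ± 5.19% in 8w BM. The ratio of Jun to Fos FPKM was 8.08 ± 1.01 in E12.5 FL, 2.10 ± 0.0797 in E16.5 FL and 0.702 ± 0.0451 in Perinatal BM, and these 3 groups did not overlap. It was 1.27 ± 0.120 in 1w BM, 1.72 ± 0.330 in 3w BM, 1.21 ± 0.328 in 4w BM, 1.60 ± 0.360 in 6w BM and 0.929 ± 0.198 in 8w BM. The ratio of Fos to Fosb was 5.08 ± 1.24 in E12.5 FL, 2.51 ± 0.0560 in E16.5 FL, 1.80 ± 0.0525 in Perinatal BM and 1.77 ± 0.0385 in 1w BM. It was 1.24 ± 0.229 in 3w BM, 2.83 ± 0.534 in 4w BM, 1.14 ± 0.260 in 6w BM and 1.78 ± 0.169 in 8w BM. Ratios of FPKM compare transcripts per length and say nothing of protein amounts.

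**Figure D3:**
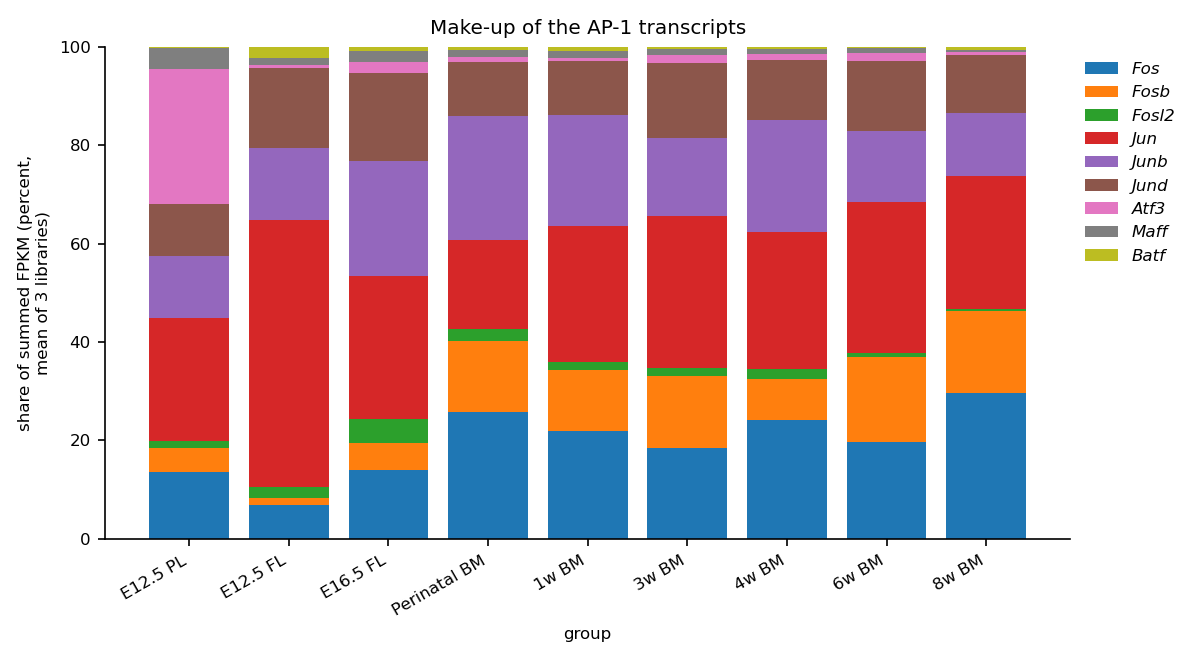
Share of each AP-1 gene in the summed FPKM of the 9 (y axis, percent; mean of 3 libraries) by group (x axis). Jun, Junb and Jund fill most of the E12.5 FL bar, Fos genes take a larger share in every BM bar than in the FL bars, and Atf3 is a large part of the E12.5 PL bar alone.

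Among the 24 FL and BM libraries, which fall into 8 groups and are all labelled as purified HSPCs, the members varied together to very different degrees. Over the 36 pairs Pearson's r of log2(FPKM + 1) had a median of 0.666, between -0.482 and 0.971; these values describe the libraries and carry no test. Fos and Fosb were the closest pair (r = 0.971), followed by Jun and Jund (0.936) and Jund and Atf3 (0.927). Fosl2 was near 0 with Fos (0.0957), was closest to Maff (0.818) and was negative with Batf (-0.482).

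With the group means removed, so that only the spread among libraries of a group was left, r was 0.954 for Jun and Jund, 0.853 for Fosl2 and Maff and 0.851 for Fos and Fosb. Fos and Fosl2 had -0.257 and Fosl2 and Batf -0.587. Libraries of 1 group that were high for Jun were thus also high for Jund. The second 6w BM library was the highest of its group for all 8 members other than Batf, and the third 8w BM library for the same 8.

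**Figure D4:**
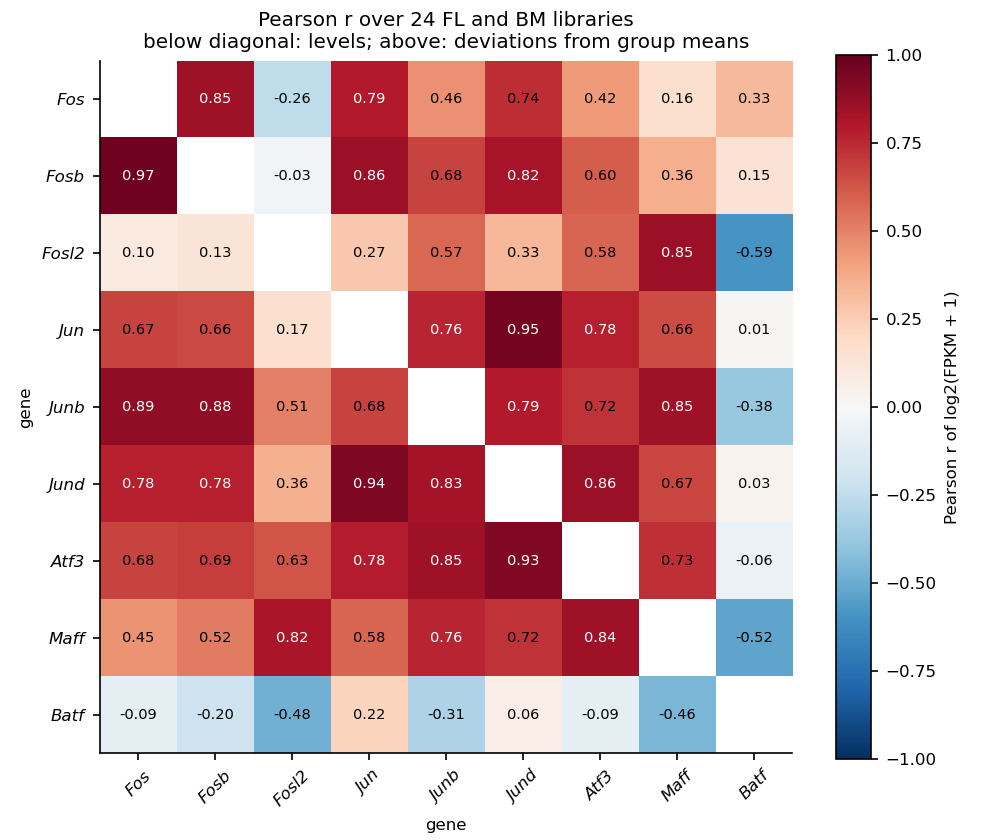
Pearson's r of log2(FPKM + 1) between the 9 AP-1 genes (rows and columns) over 24 FL and BM libraries, below the diagonal for levels and above it for deviations from the group means. Fos with Fosb and Jun with Jund are high on both sides, and Batf has low or negative values with the others.

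The genes whose pattern over the same 24 libraries was most like that of each member were sought among 8553 tested genes that averaged 5 FPKM or more. The 9 members themselves were left out, and pairs among them are given above. Of those pairs, Fos with Fosb (0.971) was closer than any gene named below for Fos or Fosb. For Fos they were Serinc3 (0.947), Parp14 (0.946) and H2-DMa (0.944), r in parentheses, and for Fosb Dock10 (0.955), Egr1 (0.948) and Casp4 (0.946). With the group means removed, r of Fos with these 3 genes was 0.327, 0.231 and 0.284, lower than over the group levels. Jun was most like Rhob (0.971), Dnajb1 (0.937) and Klf2 (0.934), and Jund like the same genes, Klf2 (0.964), Rhob (0.946) and Dnajb1 (0.945). For these the likeness held within groups too, at 0.951, 0.823 and 0.911 for Jun. Junb was most like Cdkn1a (0.955), Nr4a1 (0.948) and Ccrl2 (0.944), Atf3 like Zbtb21 (0.933), Mafk (0.926) and Mcl1 (0.919). Fosl2 was most like Plaur (0.953), the gene of the urokinase receptor, then Smim3 (0.908) and Mxd1 (0.888). Maff was most like Kdm6b (0.966), a histone demethylase gene, then Nfkbia (0.957) and Klf11 (0.95). Batf reached at most Ccdc137 (0.817).

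The summed level of the 15 other immediate-early genes ranked the libraries of a group in the same order as the AP-1 sum in 5 of the 9 groups and in another order in the other 4 (E16.5 FL, Perinatal BM, 3w BM and 4w BM). In 6w BM it was 5018, 7899 and 4541 FPKM in libraries 1, 2 and 3, where the AP-1 sum was 5782, 8678 and 5253 FPKM. In 8w BM it was 2038, 1511 and 3855 FPKM, with an AP-1 sum of 3134, 1881 and 4928 FPKM, in the same order in both groups. In 4w BM, where the order differed, it was 2904, 2749 and 2699 FPKM with an AP-1 sum of 3066, 2926 and 3287 FPKM. E12.5 FL had the lowest values of both, with 804, 902 and 717 FPKM for the immediate-early genes and 853, 962 and 772 FPKM for AP-1. The immediate-early sum of E12.5 PL, 2365, 3699 and 3123 FPKM, was above that of E12.5 FL in every library. Heat shock genes, which respond to protein damage, did not follow the same order: their 8-gene sum was 3691 to 3890.1 FPKM in E12.5 FL and 2679 to 2902 FPKM in 6w BM.

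**Figure D5:**
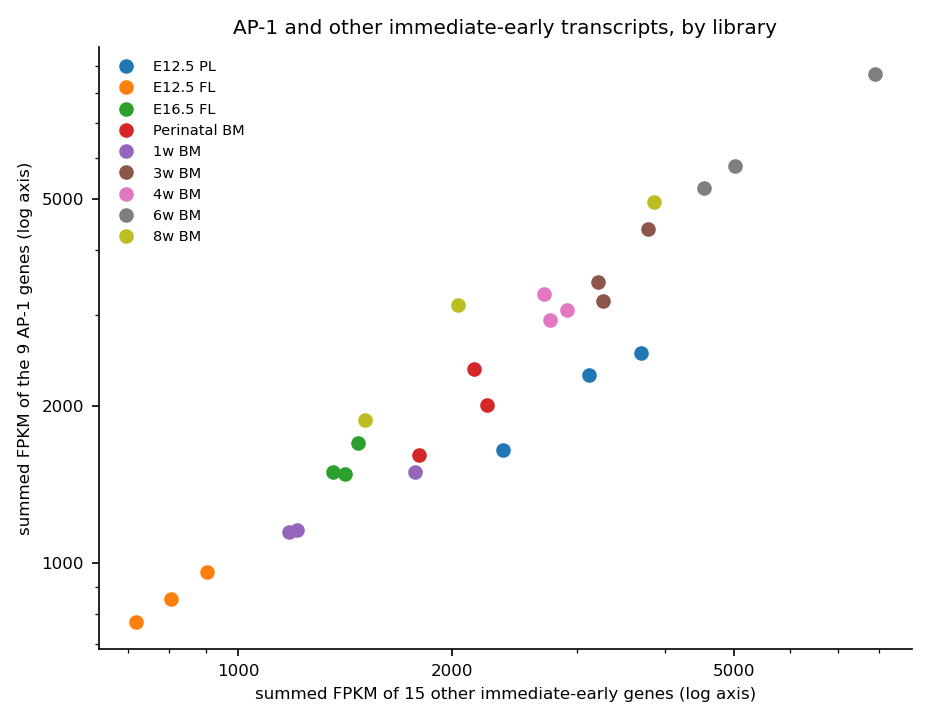
Summed FPKM of the 9 AP-1 genes (y axis, logarithmic) against that of 15 other immediate-early genes (x axis, logarithmic) in each of the 27 libraries, coloured by group. E12.5 FL libraries lie at the lower left and 6w BM libraries at the upper right.

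The partners and controllers of AP-1 were counted in the same way, and the share of all tested genes called in either direction follows each count in parentheses. Of 23 other bZIP genes 20 were tested, with 12 higher and 2 lower in E12.5 PL against E12.5 FL (74.2%), 1 higher and 3 lower in Perinatal BM against E16.5 FL (28.4%) and 4 higher and 5 lower in 1w BM against Perinatal BM (17.6%). Later they had 4 higher and 0 lower in 3w BM against 1w BM (10.4%) and 1 higher and 5 lower in 8w BM against 6w BM (8.18%). Nfe2l2, the bZIP factor of the oxidative stress response, was at 25.4 ± 5.76 FPKM in 1w BM and 12.7 ± 1.63 FPKM in Perinatal BM. Fosl1, the gene of the fourth Fos protein, was at 3.13 ± 0.825 FPKM in 6w BM and 0.835 ± 0.167 FPKM in 4w BM and therefore low beside Fos and Fosb per length. Of 17 regulators of AP-1 transcripts and proteins, the counts were 3 higher and 7 lower in E12.5 PL against E12.5 FL (74.2%), 5 higher and 1 lower in E16.5 FL against E12.5 FL (34.6%) and 0 higher and 5 lower in Perinatal BM against E16.5 FL (28.4%). In marrow they were 3 higher and 0 lower in 3w BM against 1w BM (10.4%) and 0 higher and 3 lower in 8w BM against 6w BM (8.18%). Against E12.5 FL and E16.5 FL these shares are near or below those of all genes and are no result about the list. Zfp36 was at 1047 ± 444 FPKM in 8w BM and 2116 ± 293 FPKM in 6w BM, and Zfp36l2, a relative of it, at 768 ± 50.8 FPKM in E16.5 FL and 412 ± 17.2 FPKM in E12.5 FL.

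Calls among the 12 tested AP-1 target genes were 4 higher and 4 lower in E16.5 FL against E12.5 FL (34.6%), 3 higher and 2 lower in 3w BM against 1w BM (10.4%), 1 higher and 3 lower in 8w BM against 6w BM (8.18%) and 1 higher and 5 lower in 8w BM against Perinatal BM (37.8%). In 4w BM against 3w BM and in 6w BM against 4w BM limma called none of the 12 (1 and 2 at an unadjusted p under 0.05). Plaur was at 40.3 ± 15.8 FPKM in E16.5 FL and 12.2 ± 1.27 FPKM in E12.5 FL. It was at 34.5 ± 10.8 FPKM in 3w BM and 14.3 ± 3.38 FPKM in 1w BM, and at 10.2 ± 3.19 FPKM in 8w BM and 27.5 ± 1.15 FPKM in 6w BM. Vegfa, an angiogenic growth factor gene, was at 69.4 ± 10.1 FPKM in 3w BM and 27.1 ± 9.40 FPKM in 1w BM, and at 24.9 ± 16.4 FPKM in 8w BM and 59.3 ± 21.4 FPKM in 6w BM. Hmox1 rose in 8w BM, at 26.4 ± 8.80 FPKM in 8w BM and 7.15 ± 3.34 FPKM in 6w BM, where 7 AP-1 genes fell. Tnf fell in E16.5 FL, at 27.2 ± 10.5 FPKM in E16.5 FL and 63.7 ± 13.6 FPKM in E12.5 FL, where 7 AP-1 genes rose. Calls among 24 MAP kinases and phosphatases were 12 higher and 8 lower in E12.5 PL against E12.5 FL (74.2%) and 2 higher and 10 lower in 8w BM against Perinatal BM (37.8%). The 6 erythroid markers summed to at most 64.1 FPKM in any library.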

How the data were processed

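Per the labels, RNA of purified HSPCs was sequenced in bulk. Tools named in the submitters' processing notes are STAR 2.7, HTSeq 0.6.1p1, FastQC and Trim Galore, with the build GRCm38. Values are FPKM as deposited by the authors; the sources used here do not name the tool that computed them, the annotation or any use of strand, so reads of overlapping antisense transcripts cannot be told apart. Each of the 27 columns was mapped to a library by name and used.

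Tests used log2(FPKM + 1). Genes with at least 1 FPKM in at least 3 libraries were kept (13350 of 24418). Group means were fitted to all 27 libraries with limma 3.58.1 in R 4.3.3 (eBayes with a trend, 18 residual degrees of freedom), and p-values were adjusted by Benjamini-Hochberg within each of 10 comparisons. An F test compared the 8 FL and BM groups. The fit was tested on simulated data. Correlations, promoter scans and figures used Python 3.11.15, pandas 2.3.3 and matplotlib 3.10.9. Gene starts and promoters are RefSeq's (GRCm38.p6).

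The 9 members and all gene lists were chosen with earlier results of these data known. Every member was named in every comparison. Of each other list at most 4 genes with the smallest adjusted p in a comparison were named, and of genes most like a member the 3 with the highest r. Genes listed at 0 and library values were given beside them where a result turned on them.

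The alternatives tried were leaving out single libraries or all E12.5 PL libraries, fitting just the 6 libraries of a comparison, a replicate block, a median-of-ratios scaling, a pseudocount of 0.1, and a filter at 5 FPKM or none.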

Additional observations from a re-analysis of the deposited data

How the results depend on the processing

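No member reversed its direction while called under any alternative. A filter at 5 FPKM and a median-of-ratios scaling changed the call of 0 of 90 member comparisons (limma), and a pseudocount of 0.1 ended 1, that of Batf in 8w BM against Perinatal BM (adjusted p = 0.0546). The replicate numbers did not pair the libraries: deviations of same-numbered libraries correlated at -0.205 to 0.227, with 14 of 108 pairs above 0.1, and 8 of 27 libraries were closest to their own number. With the replicate block, 7, 7, 2, 5, 8, 1, 4, 7, 7 and 5 members were called in the 10 comparisons in the order of the text, as without it. Without a filter on low values, which puts more genes under the adjustment, 8 calls ended. They were Fos, Fosb and Atf3 in 1w BM against Perinatal BM (adjusted p = 0.0705, 0.0708 and 0.0715; 2 members called, against 5), Jund in E12.5 PL against E12.5 FL (0.0563) and Fosl2 in 3w BM against 1w BM (0.0555). The others were Maff in 6w BM against 4w BM (0.0786) and Jund and Batf in 8w BM against Perinatal BM (0.0734 and 0.0576). Without the E12.5 PL libraries 3 members were called in 1w BM against Perinatal BM, and the calls of Maff in 6w BM against 4w BM (0.0608) and Jund in 8w BM against Perinatal BM (0.0638) ended too. With only the 6 libraries compared, which leaves fewer residual degrees of freedom, 1 member was called in 1w BM against Perinatal BM, 1 in 8w BM against Perinatal BM, and none by limma in 4w BM against 3w BM, 6w BM against 4w BM and 8w BM against 6w BM (4, 5 and 8 at an unadjusted p under 0.05). That fit also ended the calls of Fosl2 and Maff in 3w BM against 1w BM (adjusted p = 0.0523 and 0.0529) and of Jun in 8w BM against E16.5 FL (0.125). It called 3 members not called otherwise: Fosl2 in E12.5 PL against E12.5 FL (0.0207), Batf in E16.5 FL against E12.5 FL (0.0316) and Batf in 8w BM against E16.5 FL (0.047). In the F test over 8 groups, 8 members were called without a filter and with a pseudocount of 0.1, against 9. Over all genes that fit called 2145 genes in Perinatal BM against E16.5 FL (3786 with all libraries), 899 in 1w BM against Perinatal BM (2345), 104 in 4w BM against 3w BM (1239), 10 in 6w BM against 4w BM (526) and 6 in 8w BM against 6w BM (1092). The cause was not tested.

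Leaving out each library in turn gave 6 to 7 called members in E12.5 PL against E12.5 FL, 7 in E16.5 FL against E12.5 FL, 2 in Perinatal BM against E16.5 FL, 0 to 4 in 1w BM against Perinatal BM (0 without 1w BM library 3, with 5 at an unadjusted p under 0.05) and 6 to 8 in 3w BM against 1w BM. It gave 0 to 1 in 4w BM against 3w BM, 1 to 4 in 6w BM against 4w BM, 3 to 7 in 8w BM against 6w BM, 3 to 7 in 8w BM against Perinatal BM, 4 to 6 in 8w BM against E16.5 FL and 8 to 9 in the F test. All-gene counts in the same order were 9444 to 9701, 3583 to 4016, 2945 to 3841, 1462 to 2423, 738 to 988, 363 to 1644, 237 to 588, 478 to 1076, 4299 to 4687 and 4414 to 4916. FPKM give no counts, so no counting error could be attached to low values.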
